A study of Mus musculus with 12 samples.

Results

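The *Fos* and *Jun* gene family encodes the subunits of the transcription factor AP-1. Its transcripts were followed in RNAseq libraries of mouse cortex. *Fos*, *Fosb*, *Fosl1*, *Fosl2*, *Jun*, *Junb* and *Jund* were found by gene symbol and their transcripts were summed to genes. They are 7 of the 36047 genes, and 21 of the 118489 transcripts, in the deposited tables. The family was selected from earlier results of these libraries, in which several of its genes differed between *Gde2*KO and WT cortex at 4 months. The values of that comparison are therefore given as a description, with no test of the members. The libraries came from 4 groups of 3 mice, 1 library per mouse, namely 4-month WT, 4-month *Gde2*KO, 19-month WT and 19-month *Gde2*KO. *Gde2*KO mice are *Gde2*-/- animals, in which the loss of GDE2, a surface enzyme that cleaves GPI anchors and whose gene is named *Gdpd5* in the tables, is not restricted to a cell type. Mice of both sexes were used in the study, and the labels name no treatment. The 19-month animals were sequenced to look for splicing defects and the 4-month animals to look for pathways that change early, so age and library set cannot be told apart.

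AP-1 is a dimer held together by leucine zippers. Fos proteins have to pair with a Jun protein to bind DNA, while Jun proteins also pair with each other. In neurons *Fos*, *Fosb* and *Junb* are immediate early genes, which are transcribed within minutes of synaptic activity from promoters that bind CREB and SRF, and whose mRNAs are short-lived. *Jund* is held at a steadier level in unstimulated cells, *Jun* also responds to stress and injury through JNK, and *Fosl1* and *Fosl2* are usually induced later than *Fos*. *Fosb* additionally makes a truncated protein, ΔFosB, which lacks the C-terminal part of FosB, is long-lived and is known for its accumulation after repeated stimulation.

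The sequences just upstream of the start sites are shown for the 3 genes whose *Gde2*KO and WT libraries did not overlap at 4 months. They are the last 110 bases before the RefSeq start on GRCm38.p6, written 5′ to 3′ in the direction of transcription, with TGACG, the core of the cAMP response element (CRE), and TATAAA in capitals.
*Fos*, chr12:85473780-85473889 (+ strand): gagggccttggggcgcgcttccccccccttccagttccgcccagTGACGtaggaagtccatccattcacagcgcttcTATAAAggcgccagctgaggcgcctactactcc
*Fosb*, chr7:19310046-19310155 (- strand): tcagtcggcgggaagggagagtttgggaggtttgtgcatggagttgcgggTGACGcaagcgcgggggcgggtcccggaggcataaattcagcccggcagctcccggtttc
*Junb*, chr8:84978749-84978858 (- strand): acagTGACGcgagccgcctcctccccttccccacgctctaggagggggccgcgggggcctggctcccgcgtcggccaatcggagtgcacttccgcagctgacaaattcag
Windows of 250 bases before the start were searched on both strands for 6 of the 7 members. With -1 as the base before the start, TGACG stood at -66 to -62 and at -129 to -125 of *Fos*, at -60 to -56 of *Fosb* and at -106 to -102 of *Junb*. It was not found in the windows of *Fosl2*, *Jun* and *Jund*, and it occurs in 17.8% of all 32851 windows of this length. The genes shown were picked by their 4-month values, and a link of TGACG to those values was not tested. The full CRE, TGACGTCA, which contains TGACG and is held by 1.55% of windows, was found in none of the 6. The same was true of the CArG box bound by SRF (1.47% of windows) and of TGANTCA, the site of AP-1 itself (6.75%). Bases beyond the windows were not searched, so a motif absent here may lie elsewhere in the promoter. TATAAA occurred in *Fos* alone among the 6, at -33 to -28, and in 12.4% of windows. GGGCGG, the site of Sp1, was held by *Fos*, *Fosb*, *Fosl2* and *Jun*, and by 32.7% of windows. On GRCm38 the genes lie as follows, with the strand in brackets: *Fos* at chr12:85473890-85477273 (+), *Fosb* at chr7:19302696-19310051 (-), *Fosl2* at chr5:32135801-32157842 (+), *Jun* at chr4:95049034-95052222 (-), *Junb* at chr8:84974484-84978718 (-) and *Jund* at chr8:70698949-70700616 (+). The start in GENCODE vM21 lies at the RefSeq start in *Fos* and *Jun*, 6 bases upstream of it in *Fosb* and 30 bases downstream in *Junb*. It lies 671 bases upstream in *Fosl2* and 1210 bases downstream in *Jund*, so for these genes the window does not adjoin the annotated start.

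The libraries held 46432108 to 59726331 estimated reads at 4 months and 3707941 to 44602117 at 19 months, where 2 libraries, WT A and *Gde2*KO A, were shallow (6734479 and 3707941 reads). Neuron markers were abundant in every library, with a summed level of 4989 to 6197 TPM over 10 genes. *Gdpd5* was lower in *Gde2*KO than in WT libraries at both ages, without overlap, by 0.85 ± 0.25 (log2, SE) at 4 months, which did not pass the test (adjusted p = 0.463), and by 1.11 ± 0.12 at 19 months, which did (adjusted p = 0.0111). WT libraries 1 and 2 of 4 months stood apart from the other 10 in markers of neighbouring regions. Summed hippocampal markers (8 genes) were at 225 and 189 TPM in them against 14.0 to 39.9 TPM elsewhere. Summed striatal markers (9 genes) were at 141 and 116 TPM against 681 to 1867 TPM in the other 4-month libraries and 192 to 503 TPM at 19 months. No marker of either list was at 0 in a 4-month library. Blood transcripts ranged from 481 to 4805 TPM and were highest in 19-month WT library A. *Gde2*KO library 3 of 4 months also stood apart, with 8.89% of its normalized counts from mitochondrial genes against 5.13% to 6.003% in the other 4-month libraries, and with summed microglial markers (8 genes) at 452 TPM against 234 to 305 TPM.

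Levels of different genes were compared per transcript length, in TPM. *Jund* and *Junb* were the most abundant members in every group and *Fosl1* the least abundant. In 4-month WT cortex *Jund* was at 92.6 ± 16.7 TPM (mean ± SD, n = 3), *Junb* at 79.1 ± 10.6 TPM and *Jun* at 61.9 ± 24.6 TPM. Below these stood *Fos* at 23.8 ± 18.9 TPM, *Fosl2* at 17.1 ± 4.34 TPM, *Fosb* at 7.73 ± 4.85 TPM and *Fosl1* at 0.658 ± 0.925 TPM. Among neighbours in this order, the libraries overlapped for every pair but *Fosb* and *Fosl1*. The order differed in 4-month *Gde2*KO cortex, where *Junb* led at 199 ± 42.6 TPM, above *Jund* at 127 ± 17.6 TPM and *Fos* at 87.3 ± 10.1 TPM. *Junb* lay above *Jund*, and *Fos* above *Jun* (50.3 ± 11.5 TPM), in each of these 3 libraries and without overlap.

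At 19 months *Jund* was again first, at 113 ± 1.87 TPM in WT and 109.8 ± 9.33 TPM in *Gde2*KO cortex. *Junb* followed at 97.9 ± 54.5 and 98.9 ± 32.8 TPM, and the libraries of both genes overlapped in either genotype. *Fos* came next, at 46.97 ± 24.2 TPM in WT and 50.3 ± 15.7 TPM in *Gde2*KO. *Jun*, at 25.02 ± 2.84 and 29.8 ± 0.611 TPM, was the fourth, and in *Gde2*KO cortex its libraries lay below those of *Fos* without overlap. *Fosb* stood at 20.4 ± 3.68 and 18.6 ± 0.906 TPM beside *Fosl2* at 19.6 ± 3.65 and 17.4 ± 1.02 TPM, and these could not be told apart by their spread. *Fosl1* reached 2.75 ± 1.28 and 2.70 ± 0.312 TPM.

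The make-up of the family differed most between the 4-month libraries. *Fos* held 3.64%, 5.998% and 14.7% of the summed TPM of the 7 members in the 4-month WT libraries, from lowest to highest, and 16.8% to 18.8% in *Gde2*KO. *Junb* held 26.6% to 29.4% in WT and 37.6% to 43.0% in *Gde2*KO. *Jun* held 11.3% to 31.5% of the WT total and 9.46% to 11.2% of the *Gde2*KO total, and *Jund* 30.1% to 36.0% against 24.9% to 26.6%. Within the 4-month WT group, the share of *Fos* was lowest, and that of *Jun* highest, in libraries 1 and 2. At 19 months the WT and *Gde2*KO ranges of the 4 genes overlapped.

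**Figure D1:**
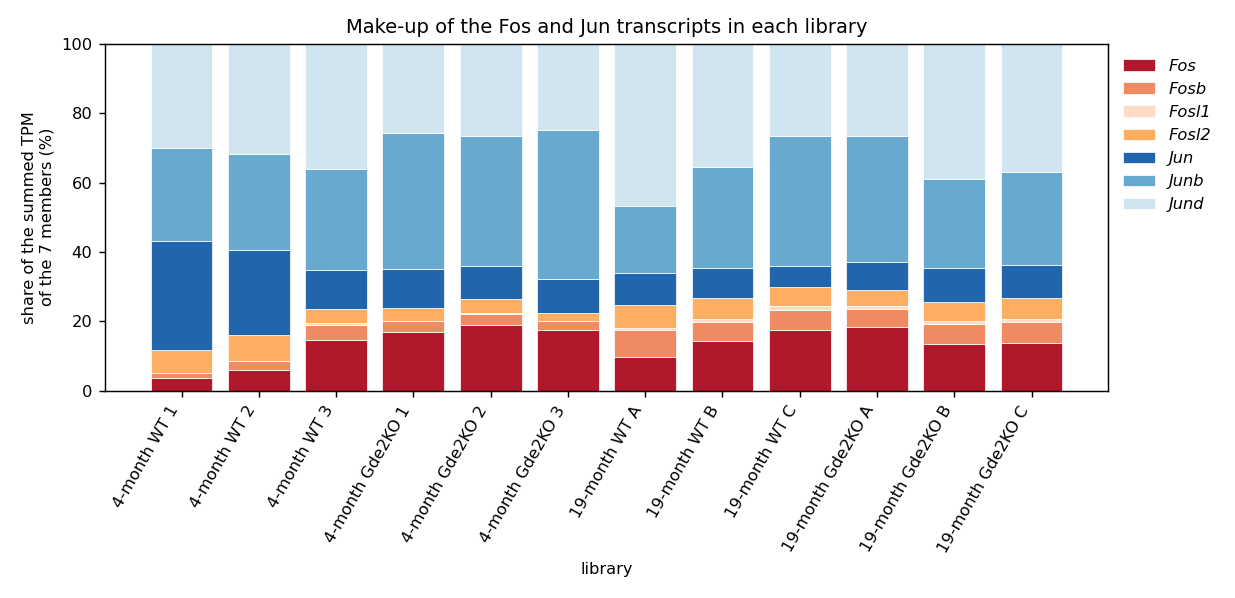
Share of each member (%, y axis) in the summed TPM of the 7 members in every library (x axis), stacked to 100%. *Junb* takes 37.6% to 43.0% in the 4-month *Gde2*KO libraries and no more than 37.5% in any other, and *Jun* takes 31.5% and 24.6% in 4-month WT libraries 1 and 2.

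The first comparison asked which members differed between *Gde2*KO and WT cortex at 4 months, on the scale of normalized counts, the authors' estimated counts divided by a size factor for each library. *Fos*, *Fosb* and *Junb* were higher in every *Gde2*KO library than in any WT library, while *Jund* was higher on average with overlap and *Jun* and *Fosl2* overlapped widely. In bulk cortex a difference in cell composition and a difference in RNA per cell cannot be told apart. Endothelial markers lay higher in *Gde2*KO than in WT at 4 months by a narrow margin. The mean of the 8 genes, as log2 values centred over the libraries of that age, was 0.05 to 0.19 in *Gde2*KO and -0.26 to 0.04 in WT, while their summed levels, 175 to 194 and 139 to 176 TPM, overlapped and no gene was at 0. Such scores of neurons, oligodendrocytes and microglia also reached higher in *Gde2*KO, with overlap, and those of astrocytes did not. For oligodendrocytes they were 0.03 to 0.17 in *Gde2*KO and -0.24 to 0.11 in WT. The part of these cell types in the members' differences was not tested.

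*Fos*, the prototype activity marker, stood at 281, 497 and 1301 normalized counts in WT libraries 1, 2 and 3, and at 2926, 2229 and 3139 in *Gde2*KO libraries 1, 2 and 3. Its mean was 3.99 times as high in *Gde2*KO, a log2 difference of 2.27 ± 0.48 (SE). The WT libraries spread widely, with library 3 well above the other two. *Junb*, which pairs with Fos proteins in the early response, was at 2064, 2247 and 2667 normalized counts in WT and at 6526, 4429 and 7323 in *Gde2*KO, a ratio of means of 2.62 and a log2 difference of 1.37 ± 0.20. The 3 WT libraries of *Junb* were close together, and all lay well below the lowest *Gde2*KO library. *Fosb* was at 234, 428 and 815 normalized counts in WT against 1199, 887 and 933 in *Gde2*KO, a ratio of 2.04 and a log2 difference of 1.20 ± 0.40. The gap between the highest WT and the lowest *Gde2*KO library was narrow for *Fosb*.

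*Jund*, the Jun protein of resting cells, was at 2126, 2327 and 2968 normalized counts in WT and 3879, 2850 and 3843 in *Gde2*KO. The ratio of means was 1.42, the log2 difference 0.51 ± 0.18, and WT library 3 lay above *Gde2*KO library 2. *Jun*, the target of JNK, was at 4656, 3805 and 1944 in WT and 3549, 2134 and 3117 in *Gde2*KO, a log2 difference of -0.18 ± 0.33. Here the order within WT was turned, with libraries 1 and 2 above every *Gde2*KO library and library 3 below all of them. *Fosl2* was at 2071, 2451 and 1412 in WT and 2314, 1786 and 1692 in *Gde2*KO, a log2 difference of -0.01 ± 0.22. *Fosl1* was below the limit for testing, with 0 to 8.36 normalized counts in WT and 1.38 to 3.80 in *Gde2*KO.

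**Figure D2:**
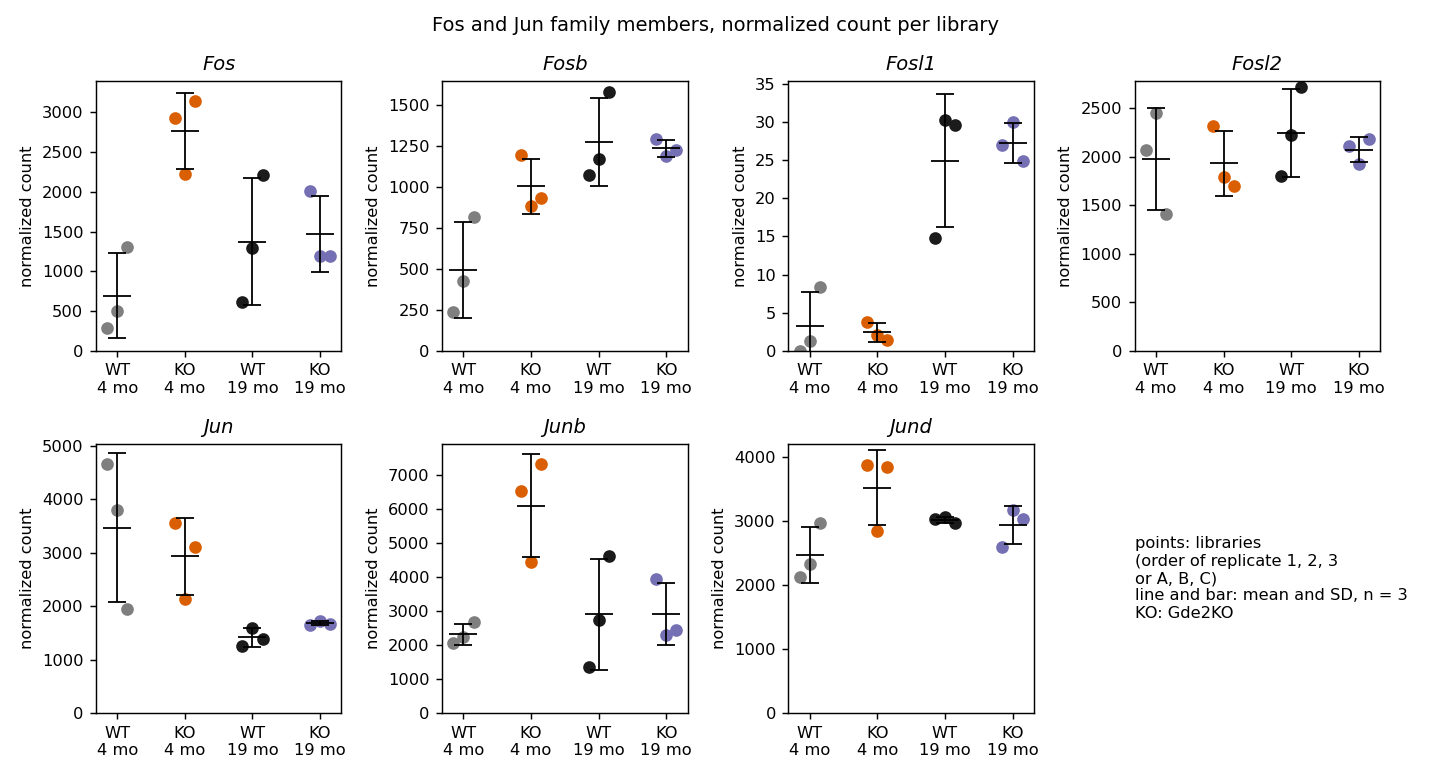
Normalized counts (y axes, linear and separate for each gene) of the 7 members in the 4 groups (x axis), with points for libraries and a line and bar for the mean and SD of 3 libraries. At 4 months all *Gde2*KO points of *Fos*, *Fosb* and *Junb* lie above the WT points, at 19 months the genotypes overlap for every member but *Jun*, and *Fosl1* is near 0 at 4 months.

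A gene counted as called when its adjusted p was below 0.1 and its log2 difference beyond 0.721. By this rule 24 of 19035 genes (0.126%) were called at 4 months, 20 of them higher in *Gde2*KO (0.105%). *Fosl1* did not reach 5 normalized counts in enough libraries to be tested. *Gde2*KO libraries lay above WT without overlap for 3 of the 7 members and for 11.1% of genes tested. Since this contrast chose the family, the count of members is printed as a description.

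The members' pattern followed the single libraries of 4-month WT cortex. *Fos* and *Fosb* were lowest in WT libraries 1 and 2, the libraries with high hippocampal and low striatal markers, and *Jun* was highest in them, and the part of these regions in the difference was not tested. With both left out, WT library 3 alone stood for WT and was assumed to vary like the libraries of the other groups. *Junb* then differed by 1.16 ± 0.53, *Fos* by 1.07 ± 0.53, *Jund* by 0.23 ± 0.18 and *Fosb* by 0.29 ± 0.22 (log2), and *Jun* and *Fosl2* by 0.56 ± 0.24 and 0.44 ± 0.22.

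Other immediate early genes were listed beside the family. The list was drawn up with earlier results of these libraries known. Its 4-month counts and p-values are therefore a description and no independent support. Of 32 listed, all were tested and 5 were called higher in *Gde2*KO at 4 months, beside 0.105% of all genes. *Btg2* rose by 1.78 ± 0.23 (log2), *Nr4a1* by 1.60 ± 0.20, *Apold1* by 1.57 ± 0.22, *Ccn1* by 1.10 ± 0.15 and *Dusp6* by 1.06 ± 0.14 (limma, adjusted p 0.0626 to 0.0765). *Nr4a1* encodes an orphan nuclear receptor, *Btg2* an antiproliferative factor, *Ccn1* a matricellular protein and *Dusp6* an ERK phosphatase. None fell, 29 of the 32 lay above 0, and their median log2 difference was 1.07, beside 0.11 over all genes tested. *Egr1*, *Arc* and *Npas4*, all induced by synaptic activity, differed by 1.78 ± 0.46, 1.82 ± 0.43 and 1.75 ± 0.44 without overlap and did not pass the test (adjusted p = 0.463 for each). They were lowest in WT libraries 1 and 2 as well, *Egr1* at 2064 and 2808 normalized counts against 8590 in WT library 3 and 11407 to 14712 in *Gde2*KO. Without those 2 libraries 0 of the 32 were called and their median was 0.53. With every library scaled to the same total, *Btg2*, *Ccn1* and *Dusp6* were called and *Nr4a1* and *Apold1* were not. Without *Gde2*KO library 1 or library 3, 2 genes and 1 gene in all were called higher.

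Genes that act before or beside AP-1 were not called at 4 months. Of the other AP-1 and related bZIP partners, 18 were tested and 0 were called, with a median of 0.20. The same held for 18 factors upstream of *Fos* and *Jun* transcription (median -0.04), 24 kinases that act on Fos and Jun proteins (0.26) and 15 genes of AP-1 turnover and corepression (0.30). It also held for 23 genes linked to AP-1 in neurons and glia (0.27). At an unadjusted p under 0.05, 2, 3, 4, 6 and 5 genes of these lists passed, in that order, where 10.6% of all genes did.

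**Figure D3:**
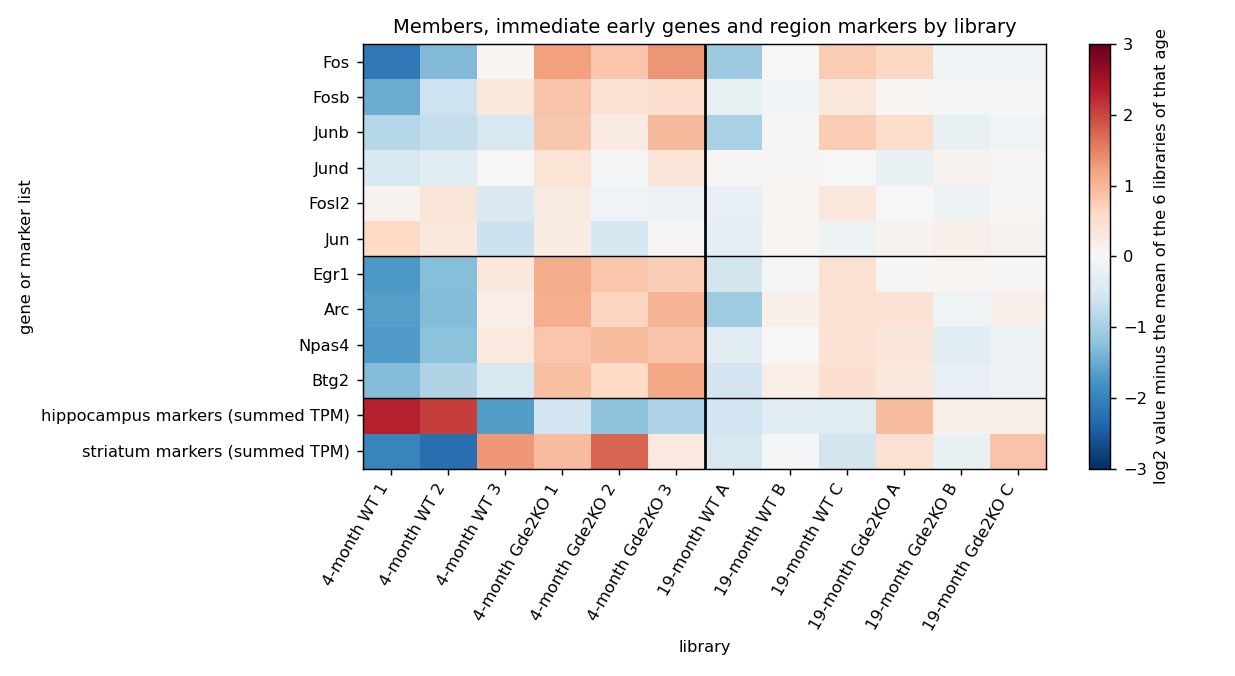
The members other than *Fosl1*, 4 other immediate early genes and the summed hippocampal and striatal markers (rows) in every library (columns), coloured by log2 value minus the mean of the 6 libraries of that age. *Fos*, *Fosb*, *Egr1*, *Arc* and *Npas4* are lowest in 4-month WT libraries 1 and 2, where hippocampal markers are highest and *Jun* is high, and *Fos* and *Junb* are low in 19-month WT library A.

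The second comparison set *Gde2*KO against WT cortex at 19 months, a contrast the choice of the family did not use. No member passed the test, and *Jun* alone had *Gde2*KO libraries above every WT library. *Fos* was at 615, 1299 and 2206 normalized counts in WT libraries A, B and C and at 2015, 1193 and 1195 in *Gde2*KO libraries A, B and C. Its log2 difference was 0.23 ± 0.41 (adjusted p = 0.883), and the WT libraries spanned the *Gde2*KO libraries on both sides. *Junb* followed the same order of libraries, at 1365, 2742 and 4600 in WT and 3948, 2311 and 2452 in *Gde2*KO, a difference of 0.13 ± 0.39 (adjusted p = 0.942). For both genes the lowest library was WT A and the highest WT C. WT A and *Gde2*KO A are the shallow libraries, and without them the differences were -0.50 ± 0.22 for *Fos* and -0.58 ± 0.22 for *Junb* (adjusted p = 0.822 and 0.799).

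*Jun* was at 1263, 1599 and 1394 normalized counts in WT and 1659, 1724 and 1663 in *Gde2*KO, a log2 difference of 0.25 ± 0.09. This did not pass over all genes (adjusted p = 0.668), and the exact permutation test gave p = 0.1 (two-sided), the smallest that 3 against 3 libraries allow. *Gde2*KO libraries lay above WT without overlap for 5.85% of genes tested at this age and for 1 of the 7 members. *Fosb* was at 1076, 1171 and 1580 in WT and 1294, 1193 and 1227 in *Gde2*KO, a difference of -0.02 ± 0.13 (adjusted p = 0.969). *Jund*, at 3031, 3064 and 2968 in WT and 2604, 3180 and 3029 in *Gde2*KO, differed by -0.05 ± 0.08 (adjusted p = 0.881). Its WT libraries lay close together. *Fosl2* lay between 1798 and 2713 in WT and between 1928 and 2176 in *Gde2*KO, a difference of -0.10 ± 0.13 (adjusted p = 0.846). *Fosl1* lay at 14.8 to 30.3 and 24.8 to 30.0, a difference of 0.19 ± 0.41 (adjusted p = 0.905).

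At 19 months 18 of 18583 genes (0.0969%) were called, and 0 of the 7 members. One member, *Jun*, passed an unadjusted p under 0.05, as did 6.91% of all genes, and the Wald test called 0 members and 0.307% of all genes. Exact permutation tests of the members other than *Jun* gave p between 0.7 and 1.0. None of the 6 gene lists held a gene called by limma at this age. At an unadjusted p under 0.05, 3 of 20 bZIP partners, 3 of 18 upstream factors, 2 of 24 kinases, 0 of 15 turnover genes and 2 of 24 AP-1-linked genes passed. Of the other immediate early genes 2 of 32 did, and their median log2 difference was -0.01. *Egr1*, *Arc*, *Npas4* and *Btg2* differed by 0.10 ± 0.20, 0.31 ± 0.34, -0.10 ± 0.22 and -0.09 ± 0.27.

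The difference between the genotype effects at the 2 ages was estimated in a fit to all 12 libraries. It was -2.04 ± 0.73 (log2, SE, 19 minus 4 months) for *Fos*, -1.24 ± 0.51 for *Junb*, -1.22 ± 0.47 for *Fosb* and -0.56 ± 0.20 for *Jund*. It was 0.43 ± 0.38 for *Jun*, -0.09 ± 0.28 for *Fosl2* and -0.29 ± 1.22 for *Fosl1*. No p or interval is given, since the 4-month contrast that chose the family is a part of this difference. Negative values can follow from that choice alone, so no change of the *Gde2*KO effect between the ages is read from them. Without 4-month WT libraries 1 and 2, the 4-month differences of *Fos*, *Junb*, *Fosb* and *Jund* were also smaller.

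**Figure D4:**
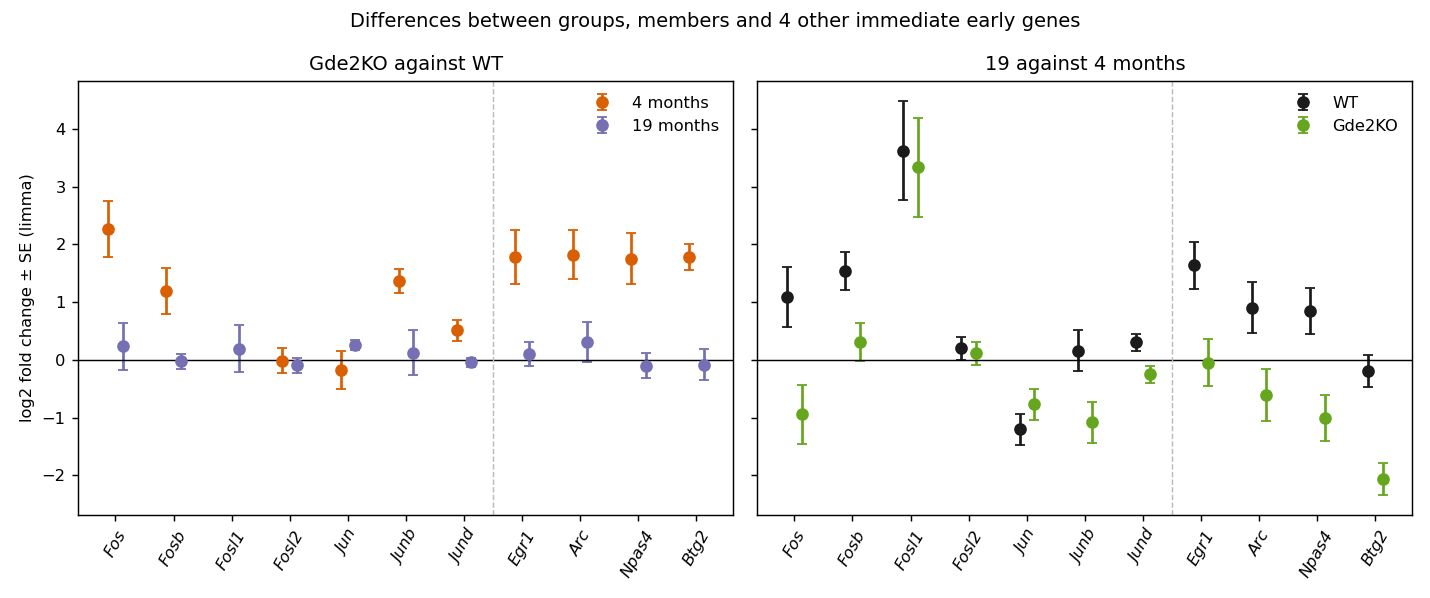
Log2 differences (y axis, points, with SE as bars) of the 7 members and, right of the dashed lines, of *Egr1*, *Arc*, *Npas4* and *Btg2*, for *Gde2*KO against WT at both ages (left) and for 19 against 4 months in both genotypes (right). *Fos* stands at 2.27 at 4 months and 0.23 at 19 months, and *Fosl1*, untested at 4 months, at 3.63 and 3.33 between the ages.

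The third comparison set 19-month against 4-month cortex within each genotype, in 1 fit to the 12 libraries. The 4-month libraries are those whose genotype difference chose the family, so *Fos*, *Fosb*, *Junb* and *Jund* are described here without a test, as is *Fosl1*, which passed the filter on low values through its 19-month libraries. *Jun* was lower in the 19-month than in the 4-month libraries of both genotypes, by calls that some settings removed. Age and library set cannot be told apart in this difference. *Fosl2* did not pass the test. Of the 18731 genes tested, 6.29% rose and 7.4% fell in WT, and 2.55% rose and 9.32% fell in *Gde2*KO. At an unadjusted p under 0.05, 34.5% passed in WT and 37.5% in *Gde2*KO.

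*Jun* fell in WT from a mean of 3468 ± 1387 (SD, n = 3) to 1418 ± 169 normalized counts, a log2 difference of -1.20 ± 0.27 (SE, adjusted p = 0.0117), and in *Gde2*KO from 2933 ± 725 to 1682 ± 36.6, a difference of -0.77 ± 0.27 (adjusted p = 0.0587). Its 4-month and 19-month libraries did not overlap in either genotype. With every library scaled to the same total, which moved the median of all genes in *Gde2*KO from -0.21 to 0.00, *Jun* differed by -0.56 ± 0.25 in *Gde2*KO and was no longer called (adjusted p = 0.134). The call in *Gde2*KO was also lost without any 1 of its libraries other than 4-month library 2 (adjusted p 0.116 to 0.177). In WT it was lost without 4-month WT libraries 1 and 2, which stood apart in hippocampal and striatal markers (-0.46 ± 0.24, adjusted p = 0.411). *Fosl2* differed by 0.20 ± 0.20 in WT and 0.11 ± 0.20 in *Gde2*KO (adjusted p = 0.514 and 0.709).

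*Fosb* was at 492 ± 295 normalized counts in 4-month and 1276 ± 267 in 19-month WT cortex, a difference of 1.53 ± 0.33 (log2, SE), and every 19-month library lay above every 4-month one. Without 4-month WT libraries 1 and 2 the difference was 0.63 ± 0.22. In *Gde2*KO the means were 1006 ± 168 and 1238 ± 51.2, a difference of 0.31 ± 0.33. *Junb* was at 6093 ± 1495 in 4-month and 2904 ± 907 in 19-month *Gde2*KO cortex, a difference of -1.08 ± 0.36, and in WT at 2326 ± 309 and 2902 ± 1623, a difference of 0.16 ± 0.36. *Fos* differed by 1.09 ± 0.51 in WT and by -0.94 ± 0.51 in *Gde2*KO, where its 19-month libraries lay below the 4-month ones. *Jund* differed by 0.30 ± 0.14 and -0.25 ± 0.14. Libraries of 19 months lay above those of 4 months without overlap for 2 members in WT, *Fosb* and *Fosl1*, and for 19.3% of genes, and below for *Jun* and 26.7% of genes. In *Gde2*KO they lay above for *Fosl1* and 11.3% of genes, and below for *Fos*, *Jun* and *Junb* and 29.9% of genes. These counts are a description, since the 4-month values chose the family and *Fosl1* passed the filter through its 19-month libraries.

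*Fosl1*, a Fos protein without the transactivation domain of Fos, was close to 0 at 4 months. Its gene (chr19:5447547-5455946, + strand, GRCm38) had 0, 1.21 and 8.36 normalized counts in 4-month WT libraries and 3.80, 2.06 and 1.38 in *Gde2*KO. At 19 months it stood at 14.8, 30.3 and 29.6 in WT and 27.0, 30.0 and 24.8 in *Gde2*KO. The fitted differences were 3.63 ± 0.86 in WT and 3.33 ± 0.86 in *Gde2*KO, with no test. Without 4-month WT libraries 1 and 2 that of WT was 1.45 ± 0.76, and with a pseudocount of 5 in place of 0.5 that of WT was 1.96. The transcript that encodes the 273-codon protein was at 0 in 5 of the 6 libraries of 4 months and at 0.708 in *Gde2*KO library 1. It was at 15.7 ± 5.44 normalized counts in WT and 19.4 ± 2.89 in *Gde2*KO at 19 months. In WT, where all 4-month libraries were at 0, its 19-month mean was 8.15 times the limit that a count of 0 allows, 3 reads per library. The shallow libraries A rest on 2.41 and 2.48 reads for this transcript, below that limit, and the others on up to 30.6. The ratio is therefore not a lower bound. *Fosl1* overlaps *Ccdc85b* on the other strand, and whether the counting used strand is not given in the sources used here. The same holds for *Jun* and *Junos*, *Junb* and *Prdx2*, and *Jund* and *Gm11175*.

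Other genes of the pathway were read in the same way between the ages, from lists drawn up with earlier results of these libraries known. Their counts and p-values are therefore a description and no independent support. Of the other immediate early genes 10 of 32 rose and 1 fell in WT, beside 6.29% and 7.4% of all genes. Of the same 32, 0 rose and 11 fell in *Gde2*KO, beside 2.55% and 9.32% of all genes. In WT *Ier3* rose by 1.88 ± 0.39, *Egr1* by 1.64 ± 0.41, *Trib1* by 1.21 ± 0.31, *Egr3* by 0.94 ± 0.22 and *Per1* by 0.85 ± 0.21, and *Gadd45g* fell by 0.96 ± 0.20 (adjusted p 0.00791 to 0.0203). In *Gde2*KO *Apold1* fell by 2.31 ± 0.30, *Btg2* by 2.07 ± 0.28, *Ccn1* by 1.69 ± 0.31, *Gadd45g* by 1.22 ± 0.20, *Ier2* by 1.14 ± 0.28 and *Dusp6* by 0.74 ± 0.15 (adjusted p 0.00117 to 0.0198). *Apold1*, *Btg2*, *Ccn1* and *Dusp6* were called higher in these same 4-month *Gde2*KO libraries, and a fall from that group can follow in part from that. The list's medians were 0.55 in WT and -0.42 in *Gde2*KO, beside -0.07 and -0.21 over all genes. Without 4-month WT libraries 1 and 2 none of the 32 was called in WT and the median was 0.07. With equal totals 8 fell in *Gde2*KO, and *Dusp6* was not among them.

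Among 20 other AP-1 and related bZIP partners, 5 rose and 1 fell in WT, beside 6.29% and 7.4% of all genes. *Jdp2*, a repressor that pairs with Jun proteins, rose from 1123 ± 356 to 2408 ± 303 normalized counts, by 1.14 ± 0.20 (adjusted p = 0.00392). *Nrl* rose by 1.71 ± 0.34, *Maff* by 1.05 ± 0.34 and *Batf2* by 2.04 ± 0.80, and *Mafa* fell by 0.77 ± 0.29. *Batf2* was a low gene, at 2.20 normalized counts on average at 4 months and 11.1 at 19 months in WT. In *Gde2*KO *Nrl*, a Maf-family factor, rose by 1.95 ± 0.34 (adjusted p = 0.00505) and *Cebpb*, a bZIP factor of inflammation, fell by 1.0002 ± 0.31 (adjusted p = 0.041). Without 4-month WT libraries 1 and 2, *Nrl* and *Atf5* were called in WT. With equal totals *Mafa* was not called, and without both shallow libraries *Maff*, *Batf2* and *Mafa* were not called in WT, nor *Cebpb* in *Gde2*KO.

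Of 18 upstream factors tested, *Mef2c*, a neuronal MADS-box factor, was called in WT and rose by 1.47 ± 0.39 (adjusted p = 0.0244), and 0 were called in *Gde2*KO, where 10 of 18 had an unadjusted p under 0.05, beside 37.5% of all genes. Of 24 kinases, the p38 kinases *Mapk11*, *Mapk12* and *Mapk13* rose in WT by 1.33 ± 0.24, 0.99 ± 0.19 and 1.22 ± 0.43, and 0 were called in *Gde2*KO, where 8 of 24, a share near that of all genes, had an unadjusted p under 0.05. With equal totals *Mapk12* was called in *Gde2*KO also. None of these 4 genes was called in WT without 4-month WT libraries 1 and 2. No gene of AP-1 turnover and corepression was called in either genotype by limma, with 4 and 7 of 15 at an unadjusted p under 0.05 in WT and *Gde2*KO, beside 34.5% and 37.5% of all genes.

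Of 24 genes linked to AP-1 in neurons and glia, 7 rose in WT and none fell, beside 6.29% and 7.4% of all genes. *Vgf*, a secreted neuropeptide precursor, rose by 1.03 ± 0.19, *Plau* and *Plaur*, urokinase and its receptor, by 1.44 ± 0.28 and 1.41 ± 0.43, and *Hmox1*, heme oxygenase 1, by 0.79 ± 0.21. The proteases *Mmp3* and *Mmp9* and the inhibitor *Timp1* rose by 3.95 ± 0.88, 1.16 ± 0.46 and 0.76 ± 0.27, and *Mmp3* was a low gene, at 12.5 normalized counts on average at 19 months in WT. In *Gde2*KO *Hmox1*, *Mmp3* and *Timp1* rose, and *Rgs2*, *Scg2*, *Ccnd1*, *Tac1* and *Penk* fell, a balance of 3 higher and 5 lower that became 6 higher and 3 lower with equal totals. *Scg2* and *Ccnd1* then lost the call and *Plau*, *Vgf* and *Vim* gained it. Without both shallow libraries *Scg2*, *Ccnd1*, *Penk* and *Mmp3* were not called in *Gde2*KO, nor *Mmp3* in WT. The neuropeptide genes *Tac1* and *Penk*, which striatal neurons express strongly, fell by 2.23 ± 0.57 and fell by 2.15 ± 0.76. Summed striatal markers were at 681 to 1867 TPM in 4-month and 240 to 503 TPM in 19-month *Gde2*KO libraries, and their part in these differences was not tested. Without 4-month WT libraries 1 and 2, *Penk* and *Tac1* fell in WT also and none of the 7 that rose was called.

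*Fosb* makes its 2 kinds of protein by splicing within the coding sequence. The full-length transcript, Fosb-201, encodes 338 codons. An intron of 140 bases at chr7:19305007-19305146 (- strand, GRCm38) is removed from Fosb-206, which encodes the 237-codon ΔFosB, and from Fosb-207, which encodes 201 codons and lacks the third coding exon. The coding sequence on either side of the splice is shown because the intron decides which protein is made. It begins at chr7:19305206 and is read towards lower coordinates, the capitals mark the triplet that follows chr7:19305147, the full-length sequence is shown to chr7:19305087, and TGA is a stop codon.
Fosb-201, full length: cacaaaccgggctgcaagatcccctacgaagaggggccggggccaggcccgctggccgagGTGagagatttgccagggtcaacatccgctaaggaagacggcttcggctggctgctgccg
Fosb-206, truncated: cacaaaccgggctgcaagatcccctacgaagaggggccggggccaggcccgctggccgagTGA

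The full-length transcript held most of the *Fosb* TPM in every library. Its share was 78.8% ± 6.98 in 4-month WT, 82.8% ± 1.42 in 4-month *Gde2*KO, 75.7% ± 16.2 in 19-month WT and 82.6% ± 1.63 in 19-month *Gde2*KO (SD, n = 3 each). The truncated transcripts together held 8.88%, 5.56% and 14.6% in 4-month WT libraries and 11.9%, 6.24% and 8.62% in *Gde2*KO. At 19 months they held 38.7%, 8.31% and 9.59% in WT libraries A, B and C and 10.4%, 10.8% and 11.6% in *Gde2*KO. The high value of WT library A rests on 63.3 estimated reads, and it lay above, and libraries B and C below, all *Gde2*KO libraries. With 3 against 3 libraries the exact permutation test cannot go below p = 0.1, and it gave p = 1.0 (two-sided). For ΔFosB alone, Fosb-206, the 19-month shares were 4.35% to 18.3% in WT and 0% to 3.26% in *Gde2*KO, without overlap, on 0 to 38.8 estimated reads per library. The highest and the lowest of these came from the shallow libraries, WT A with 11.4 reads and *Gde2*KO A with 0. By normalized counts rather than TPM the mean share was 2.58% in WT and 0.379% in *Gde2*KO. The exact permutation test of the TPM shares of ΔFosB gave p = 0.1, the smallest possible. A transcript annotated as retaining an intron, Fosb-204, held 4.24% to 15.7% over all libraries. At 19 months it held 4.24% to 5.01% in WT and 5.03% to 8.90% in *Gde2*KO (exact permutation test, p = 0.1, the smallest possible). The gap between the genotypes was narrow, and the highest share came from the shallow *Gde2*KO library A, on 13.4 estimated reads. At 4 months the full-length transcript stood at 739 to 1036 normalized counts in *Gde2*KO and 179 to 648 in WT, and the truncated transcripts together at 41.9 to 97.2 in *Gde2*KO and 6.26 to 73.1 in WT.

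**Figure D5:**
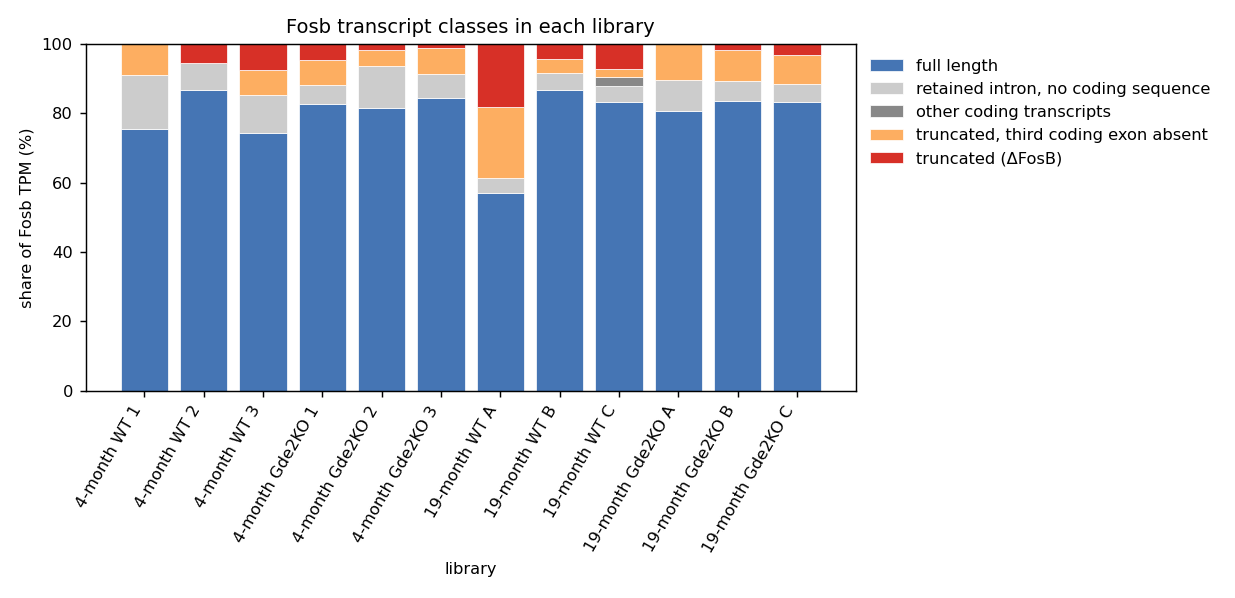
Share of *Fosb* TPM (%, y axis) in full-length, intron-retaining, other coding and truncated transcripts in every library (x axis), stacked to 100%. The share of both truncated classes (red and orange) is 5.56% to 14.6% in all libraries but 19-month WT library A, where it is 38.7%.

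Among the other members, *Jun*, *Junb* and *Jund* have no introns in their main transcripts, and these held at least 99.3% of each gene's TPM in every library. The 380-codon *Fos* transcript held 63.8% to 82.8% of *Fos* TPM, with the rest in transcripts annotated as processed and without coding sequence. The 326-codon *Fosl2* transcript held 85.5% to 99.98%.

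Likeness between genes was measured as Pearson's r over the 12 libraries, on log2 values centred on the 6 libraries of each age, and is given as a description with no p. Candidates were 12969 genes whose mean reached 100 normalized counts. *Fos* was most like 3 other immediate early genes, *Egr2* (r = 0.986), *Arc* (0.985) and *Dusp1* (0.984), with r of 0.95 to 0.97 at 19 months alone. *Junb* was most like *Gramd3* (0.962), *Trim59* (0.960) and *Cnot6* (0.955), and *Fosb* like *Dnm3* (0.979), *Cckbr* (0.976) and *Tmem56* (0.976). *Jund* was most like *Tesk1* (0.984), *Gnl1* (0.981) and *Grk2* (0.981), and *Fosl2* like *Slc7a8* (0.934), *Utp15* (0.894) and *Tbl1xr1* (0.886). *Jun* was most like *Metap1* (0.965), *Slc25a22* (0.961) and *Phf20* (0.946). For *Fosl1*, *Zc3h7b* (0.938) and *Kcnc1* (0.909) were among the nearest, with r of 0.16 and 0.50 at 19 months.

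Among the members themselves, *Fos* went with *Fosb* (r = 0.935, Spearman's rho 0.965) and *Junb* (r = 0.915, rho 0.916). Without the 2 libraries farthest from the median of *Fos* the r were 0.909 and 0.897. At 19 months *Fos* and *Junb* followed each other most closely (0.995), over 6 libraries that share the 2 shallow ones. *Jun* stood apart from *Fos* over the 12 libraries (-0.40), with -0.53 at 4 and 0.40 at 19 months. *Jund* went with *Fos* at 4 months (0.938) and not at 19 months (-0.51). *Fosl2* went with *Fos* at 19 months (0.795) and not at 4 months (-0.34). The 4-month values hold the genotype difference and the libraries with hippocampal markers, which all these genes share.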

How the data were processed

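RNA of cortex from 12 mice was sequenced as poly(A) libraries (NEBNext Ultra II). The authors quantified transcripts on GRCm38 with Kallisto and normalized them in Sleuth, whose versions are not given in the sources used here. They deposited signal values per transcript, estimated counts and TPM each divided by a size factor for the library. These are not whole reads, so limma 3.58.1 (R 4.3.3, intensity trend) stood in for Sleuth. The submitters' processing notes also name bcl2fastq 2.17, Trimmomatic 0.36 and STAR 2.5.2b.

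Transcripts were summed to genes, and 1673 transcripts without a gene (0.541% to 0.605% of a library) were left out. Genes with 5 normalized counts or more in 47% of the libraries of a comparison were tested on log2(value + 0.5), which understates changes of low genes. Genotypes were compared within each age, and ages within genotype in a fit to all 12 libraries. P-values were adjusted over all genes tested (Benjamini-Hochberg) and genes called at adjusted p under 0.1 and a natural-log difference above 0.5, which is 0.721 on the log2 scale. They measure the spread between 3 animals a group. Estimated reads were the library total divided by the value of 1 read.

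The members, the gene lists and the marker lists were chosen with earlier results of these data known. The genes named are the members, *Gdpd5*, the called genes of each list (where more than 6 were called in a comparison, the 6 of smallest adjusted p), *Egr1*, *Arc*, *Npas4* and *Btg2*, and the 3 genes most like each member; *Atf5*, *Vim*, and *Mmp9*, *Penk* and *Timp1* in *Gde2*KO were named after their values were seen. Some genes that this rule names are not reported here. Columns of 19 months name no replicate, so these libraries were lettered A to C by column order. Numbers did not pair the 4-month libraries. Positions come from GENCODE vM21 (GRCm38) and promoters from RefSeq (GRCm38.p6), with a window for 6 of the 7 members. The tests were tested on simulated data with 200 changed genes. The results were recomputed with other pseudocounts, low-value filters, library scalings and tests, with a replicate block and without single libraries.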

Additional observations from a re-analysis of the deposited data

How the results depend on the processing

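Of 469 fitted differences of members under the alternatives, 25 turned direction. The causes were not tested. At 4 months 8 turned, with *Fosl2* at 0.0374 to 0.16 and *Jun* at 0.0317 and 0.0769 where leaving out 1 library turned them, and 0.44 and 0.56 without WT libraries 1 and 2. Of the others, 13 were in the comparison of genotypes at 19 months, where no member passed. With 1 library left out at 19 months, *Fos* ranged from -0.25 to 0.67, *Fosb* from -0.14 to 0.14, *Fosl1* from -0.14 to 0.37, *Fosl2* from -0.25 to 0.0499, *Junb* from -0.33 to 0.54 and *Jund* from -0.10 to 0.0393. Without both shallow libraries *Fos* was at -0.50, *Fosl1* at -0.13, *Junb* at -0.58 and *Jund* at 0.0417. Between ages in WT, *Fosl2* ranged from -0.0265 to 0.37 and *Junb* from -0.26 to 0.62 with 1 left out, and without 4-month WT libraries 1 and 2, an alternative chosen after seeing the data, *Fos* was at -0.11 and *Junb* at -0.0463.

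At 4 months the count of genes called, 24 as reported, was 12 without a filter, 12 without an intensity trend, 113 by the Wald test, 7 without WT libraries 1 and 2, and 5 to 1510 with 1 library left out, the highest without WT library 3. Calls of members are not given for this contrast, since it chose the family. At 19 months the 18 genes called became 7 without a trend, 57 by the Wald test, 34 without both shallow libraries and 9 to 45 with 1 left out. Between ages, the 2565 genes of WT became 1692 with a mean of 50 or more, 517 without 4-month WT libraries 1 and 2 and 1525 to 3096 with 1 left out, and the 3 members past the call rule (*Fosb*, *Fosl1* and *Jun*) 0 without those 2 and 3 to 4 with 1 left out. Of these members *Jun* alone was tested between the ages. The WT counts of members are a description, since the 4-month values chose the family and *Fosl1* passed the filter through its 19-month libraries. As reported, 6.29% of all genes were called higher and 7.4% lower in WT. Without WT libraries 1 and 2, library 3 alone stood for 4-month WT, so the count of 0 decides nothing about the members. In *Gde2*KO, 1096 to 2851 genes were called with 1 left out. The split of *Gde2*KO calls between the ages moved from 478 higher and 1746 lower to 725 and 937 with median-of-ratios scaling and 863 and 794 with equal totals.

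With the replicate number as a block at 4 months, 21 genes were called. Deviations of same-numbered libraries correlated at 0.06, 0.01 and -0.05, so the numbers were not read as a pairing. At 19 months and between ages no paired analysis was possible because the 19-month columns carry no numbers. With 3 libraries a group and 2 of low depth, genotype differences of members smaller than the spread between libraries were not resolvable.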
